A study of Mus musculus with 24 samples.

Results

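The genes described here are 7 developmental transcription factors, Tbx15, Shox2, En1, Irx1, Irx2, Irx3 and Irx5, taken by symbol from a table of 27179 genes. All 7 were found, each in 1 row, and all 7 passed the filter on low values, a normalised count of at least 10 in at least 3 libraries. The table holds bulk RNA sequencing of PDGFRb+ cells, which were sorted by flow cytometry from the fat of C57BL/6 mice with no treatment named in the labels. Its 24 libraries form 8 groups of 3. The inguinal depot, a subcutaneous fat pad, gave cells labelled DPP4_pos and DPP4_neg, and the gonadal depot, a visceral fat pad, gave cells labelled FIP and APC. Each of the 4 populations was taken from male (M) and female (F) mice, so the groups are M_DPP4_pos, M_DPP4_neg, M_FIP, M_APC, F_DPP4_pos, F_DPP4_neg, F_FIP and F_APC. The age of the mice, the gates that separated FIP from APC, and whether the libraries of a group came from separate animals are not given in the sources used here. DPP4_pos and FIP cells are therefore not known to be matched populations, nor are DPP4_neg and APC cells, and the p-values reflect only the scatter among these libraries, which may be technical.

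Fat depots arise from different regions of the embryonic mesoderm, and their progenitors keep part of the positional gene programme of that origin in the adult. Tbx15 is a T-box factor of skeletal and skin mesenchyme that is known as a marker of subcutaneous fat. Shox2 is a homeodomain factor of the proximal limb that has been linked to lipolysis in mouse subcutaneous fat, and En1 is the Engrailed homeodomain factor of the embryonic trunk, limb and hindbrain. The Iroquois (Irx) factors are homeodomain proteins encoded in a pair of gene clusters, one with Irx1, Irx2 and Irx4 and the other with Irx3, Irx5 and Irx6. Irx3 and Irx5 are known for their link to the obesity-associated FTO locus and to thermogenic gene expression in adipocytes.

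In the annotation of GRCm38, Tbx15 lies on chromosome 3 (99240381 to 99354259, plus strand) and Shox2 on the same chromosome (66971727 to 66981771, minus strand). En1 lies on chromosome 1 (120602418 to 120607992, plus strand). Irx1 (71957921 to 71963723, minus strand) and Irx2 (72628820 to 72634198, plus strand) lie on chromosome 13, with 665 kb between their starts. Irx3 (91798525 to 91802067, minus strand) and Irx5 (92357625 to 92376286, plus strand) lie on chromosome 8, with 556 kb between their starts.

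RefSeq promoter windows (GRCm38.p6, 250 bases before to 50 bases after the start) were found for 4 of the 7 genes, Shox2, En1, Irx2 and Irx3. The stretches of 3 of them that lie before the annotated start are shown. The Irx3 window (chr8:91801605-91801904) lies wholly inside the annotated gene, so no stretch of it is shown. Each reads 5′ to 3′ on the gene's own strand, and capitals mark every match to the searched motifs. The stretches are chr3:66981772-66982021 for Shox2 (250 bases, minus strand), chr1:120602237-120602417 for En1 (181 bases, plus strand) and chr13:72628570-72628819 for Irx2 (250 bases, plus strand).
Shox2: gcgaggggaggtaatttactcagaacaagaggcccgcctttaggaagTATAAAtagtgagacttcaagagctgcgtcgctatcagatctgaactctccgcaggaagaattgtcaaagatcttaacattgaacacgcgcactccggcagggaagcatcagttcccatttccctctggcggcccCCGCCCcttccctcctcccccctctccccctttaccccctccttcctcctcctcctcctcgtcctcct
En1: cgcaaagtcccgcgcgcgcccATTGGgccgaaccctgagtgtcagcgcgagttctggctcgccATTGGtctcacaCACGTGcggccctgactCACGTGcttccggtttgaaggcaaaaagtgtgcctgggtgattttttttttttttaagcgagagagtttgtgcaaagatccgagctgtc
Irx2: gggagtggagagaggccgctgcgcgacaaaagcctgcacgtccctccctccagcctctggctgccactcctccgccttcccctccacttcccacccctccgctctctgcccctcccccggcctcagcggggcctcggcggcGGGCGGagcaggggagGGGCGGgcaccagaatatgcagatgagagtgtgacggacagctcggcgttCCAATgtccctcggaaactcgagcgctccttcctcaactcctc

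The search used 6 exact motifs on both strands of the whole window: TATAAA as the TATA box, CCAAT as the CAAT box, GGGCGG as the GC box, TAATTA as a homeodomain core, GGTGTGA as a T-box core and CACGTG as an E-box. Shox2 held 1 TATA box and 1 GC box, which begin 203 and 68 bases before the start. En1 held 2 CAAT boxes, both on the reverse strand, and 2 E-boxes. Irx2 held 2 GC boxes and 1 CAAT box. The Irx3 window, which holds no base before the annotated start, matched none of the 6 motifs. Of all 32851 promoter windows of this length, 13.6% held the TATA box, 37.4% the CAAT box, 35.7% the GC box and 7.15% the E-box. The homeodomain core stood in 5.29% of all windows and the T-box core in 3.98%, and neither stood in the 4 windows searched. The 3 genes thus shared no single motif of the 6, and a match is a description of letters, not a binding site.

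Values below are normalised counts, in which the authors scaled each library's reads by a single size factor. The whole reads behind them were recovered and came to 9152470 to 18221692 per library. Pdgfrb, the gene of the sorted receptor, stood between 1730 and 6277 in all 24 libraries, and Pdgfra, a second fibroblast receptor, between 6232 and 19533. Dpp4 stood at 14883 to 16085 in M_DPP4_pos and at 235 to 258 in M_DPP4_neg. In females it stood at 17356 to 20848 in F_DPP4_pos, against 4213, 2124 and 1150 in F_DPP4_neg, so the female DPP4_neg libraries held more Dpp4 and differed among themselves. Pax7 and Myod1, defining genes of the muscle lineage, did not exceed 1.23 and 2.47 in any library. The sum of 10 skeletal muscle markers, which include both, was nonetheless 1695 to 1759 in M_APC and 1103 to 1277 in M_FIP. This muscle sum was 545 to 626 in F_APC, 332 to 411 in F_FIP and at most 418 in the inguinal groups. Of the 7 tested muscle markers, 2 were called lower and 0 higher in M_DPP4_neg against M_APC, and likewise in M_DPP4_pos against M_FIP. Of all genes tested, 33.1% and 32.6% were called lower in these comparisons. The sum thus does not describe the list, and the part of muscle RNA in the gonadal libraries was not tested. Some libraries stood apart in markers of other tissues, F_DPP4_neg as a whole group in epithelial markers. The sum of 12 epithelial markers was 8524, 20166 and 11983 in F_DPP4_neg, against 383 to 694 in F_DPP4_pos and at most 294 in the other 6 groups. M_DPP4_pos replicate 1 had 52.0 Wt1 and 49.7 Tcf21, genes that are high in gonadal cells, against 15.4 to 19.6 Wt1 and 6.61 to 6.92 Tcf21 in the other M_DPP4_pos libraries. The sum of 8 adipocyte markers was 251.1 in F_DPP4_pos replicate 1, against 80.0 and 51.2 in the other F_DPP4_pos libraries, and the epithelial sum was 294 in F_APC replicate 3, against 98.0 and 105 in the other F_APC libraries. Across all genes M_DPP4_neg replicate 1 differed from replicates 2 and 3 with chi-square values of 25.4 and 18.3 per degree of freedom, while these 2 differed by 2.55. Every pair of F_DPP4_neg libraries differed by 13.2 to 21.6 and every pair of F_DPP4_pos libraries by 10.4 to 14.0. In the other groups no pair exceeded 7.96. M_DPP4_neg replicate 2 had 20103 genes above 0, against 16734 to 18134 in all other libraries.

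**Figure D1:**
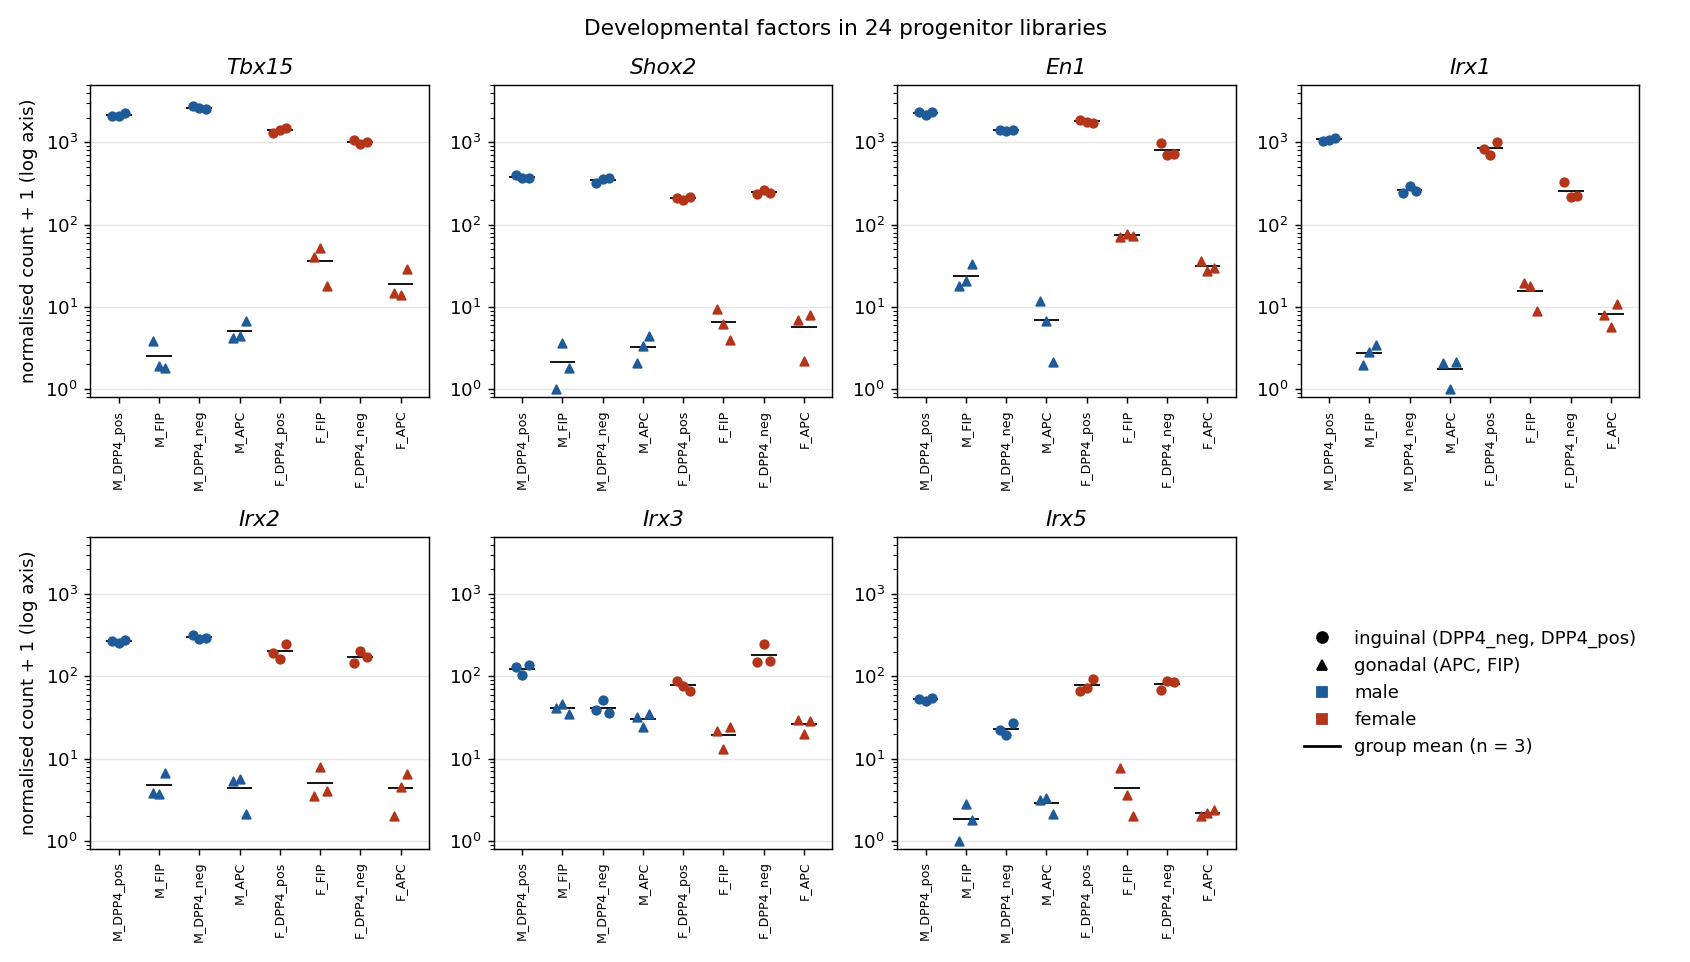
Normalised count plus 1 (log axis) of the 7 factors in each of 24 libraries, with inguinal groups as circles, gonadal groups as triangles, males in blue, females in red and the group mean (n = 3) as a line. In the panels of Tbx15, Shox2, En1, Irx1, Irx2 and Irx5 every circle lies above every triangle, and in that of Irx3 the M_DPP4_neg libraries (34.5 to 50.04) lie among the M_FIP libraries (34.1 to 44.6).

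Of the 7 factors, 6 were higher in inguinal than in gonadal cells in each of the 4 depot comparisons, and the seventh, Irx3, was higher in 3 of them. The 7 were chosen as known regulators of the subcutaneous depot and with earlier results of these data known. Their depot counts are therefore a description, not a test of an independent set. With limma and Benjamini-Hochberg adjustment over 14517 genes, 6 of 7 were called higher in M_DPP4_neg against M_APC, where 33% of all genes tested were called higher. All 7 were called higher in F_DPP4_neg against F_APC (32.2% of all genes tested), in M_DPP4_pos against M_FIP (32.4%) and in F_DPP4_pos against F_FIP (22.6%). The median log2 difference of the 7 was 6.81, 5.19, 6.63 and 5.09 in these 4 comparisons in that order, beside medians over all genes tested of -0.02, 0.02, -0.02 and -0.01. Each of these calls held in all 16 further fits of its comparison, 10 with another setting and 6 that each left out 1 of its libraries, so they also held without each of the libraries named above. In bulk samples, fewer cells that express a gene and less of its RNA per cell cannot be told apart. Where libraries are said not to overlap, this is a description, since the share of all genes without overlap was not computed.

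Tbx15, the T-box factor, had 2123, 2093 and 2281 normalised counts in M_DPP4_pos, against 2.83, 0.892 and 0.813 in M_FIP. It had 2794, 2620 and 2536 in M_DPP4_neg, against 3.22, 3.48 and 5.66 in M_APC. Male gonadal cells were thus close to empty of Tbx15 reads, with 5 reads in all over the 3 M_FIP libraries and 11 over the M_APC libraries. In females it had 1299, 1425 and 1497 in F_DPP4_pos, against 39.1, 50.3 and 16.9 in F_FIP. In F_DPP4_neg it had 1066, 966 and 1013, against 13.9, 13.1 and 27.7 in F_APC. No inguinal library overlapped a gonadal one, and the female gonadal libraries all stood above the male ones. The log2 difference was 9.84 ± 0.30 (SE, n = 3 against 3) for M_DPP4_pos minus M_FIP, with limma's adjusted p = 4.36e-19, and 9.05 ± 0.30 for M_DPP4_neg minus M_APC, adjusted p = 1.48e-18. These were rank 1 of 14517 genes by log2 difference in both male comparisons. In females it was 5.40 ± 0.30 for F_DPP4_pos minus F_FIP (adjusted p = 1.27e-13, rank 4) and 5.80 ± 0.30 for F_DPP4_neg minus F_APC (adjusted p = 1.48e-14, rank 66). As a ratio of reads per unit of depth, the male difference was 1478-fold between DPP4_pos and FIP, with an exact binomial 95% interval of 633 to 4554 that covers counting error only. The same ratio was 38.8-fold in females (interval 32.5 to 46.8).

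Shox2, the limb homeodomain factor, had 397, 365 and 367 normalised counts in M_DPP4_pos, against 0, 2.68 and 0.813 in M_FIP. It had 320, 359 and 366 in M_DPP4_neg, against 1.07, 2.32 and 3.39 in M_APC. Every male gonadal library thus held under 4 normalised counts of Shox2, and the summed reads were 4 in M_FIP and 6 in M_APC. In females it had 208, 197 and 217 in F_DPP4_pos, against 8.31, 5.12 and 2.99 in F_FIP. The F_DPP4_neg libraries had 236, 263 and 244, against 5.94, 1.19 and 6.91 in F_APC. Inguinal and gonadal libraries did not overlap, and the lowest inguinal value was 197. The log2 differences were 7.65 and 6.81 in males and 5.09 and 5.65 in females, DPP4_pos minus FIP first in each sex (SE 0.41, adjusted p between 1.95e-14 and 1.36e-10). Shox2 overlaps Rsrc1 on the opposite strand, and the strand setting of the counting is not given in the sources used here, so reads of this overlap cannot be assigned with certainty. Rsrc1, a splicing-related gene, was itself higher in inguinal cells by 0.77 to 1.07 on the log2 scale in the 4 comparisons (SE 0.09, each called).

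En1, the Engrailed factor, had 2344, 2173 and 2370 normalised counts in M_DPP4_pos, against 17.0, 19.6 and 32.5 in M_FIP. It had 1427, 1391 and 1412 in M_DPP4_neg, against 10.7, 5.80 and 1.13 in M_APC. Unlike Tbx15 and Shox2, its gonadal counts were lower in APC than in FIP in both sexes. In females it had 1892, 1790 and 1731 in F_DPP4_pos, against 69.0, 76.8 and 72.6 in F_FIP. F_DPP4_neg cells had 985, 707 and 720, against 34.7, 26.2 and 29.0 in F_APC. The groups did not overlap in any pair. The log2 difference between depots was 6.63 ± 0.33 for M_DPP4_pos minus M_FIP (adjusted p = 6.12e-15) and 7.99 ± 0.33 for M_DPP4_neg minus M_APC (adjusted p = 1.5e-16). It was 4.61 ± 0.33 for F_DPP4_pos minus F_FIP (adjusted p = 2.1e-11) and 4.69 ± 0.33 for F_DPP4_neg minus F_APC (adjusted p = 8.04e-12).

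Irx1, of the first Iroquois cluster, had 1050, 1075 and 1127 normalised counts in M_DPP4_pos, against 0.945, 1.78 and 2.44 in M_FIP. It had 240, 290 and 253 in M_DPP4_neg, against 1.07, 0 and 1.13 in M_APC, where only 2 reads were found in 3 libraries. The ratio of M_DPP4_neg to M_APC, 350-fold, is therefore loose, with an exact binomial 95% interval of 96.5 to 2894. In females Irx1 had 834, 697 and 1020 in F_DPP4_pos, against 18.3, 17.1 and 7.96 in F_FIP. F_DPP4_neg cells held 327, 214 and 224, against 6.93, 4.76 and 9.68 in F_APC. DPP4_pos libraries stood above DPP4_neg libraries in both sexes, and all of them stood above the gonadal libraries. The log2 difference was 8.68 ± 0.30 for M_DPP4_pos minus M_FIP (adjusted p = 4.89e-18) and 5.85 ± 0.30 for F_DPP4_pos minus F_FIP (adjusted p = 3.29e-14), rank 2 of 14517 in each. It was 7.31 ± 0.30 for M_DPP4_neg minus M_APC (adjusted p = 1.09e-16) and 4.996 ± 0.30 for F_DPP4_neg minus F_APC (adjusted p = 3.23e-13).

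Irx2, the neighbour of Irx1, had 269, 253 and 275 normalised counts in M_DPP4_pos, against 2.83, 2.68 and 5.69 in M_FIP. It had 317, 286 and 289 in M_DPP4_neg, against 4.29, 4.64 and 1.13 in M_APC. All 6 male inguinal libraries thus stood between 253 and 317, and all 6 male gonadal libraries under 6. In females it had 190, 164 and 248 in F_DPP4_pos, against 2.49, 6.82 and 2.99 in F_FIP. The F_DPP4_neg libraries had 144, 203 and 173, against 0.99, 3.57 and 5.53 in F_APC. Inguinal and gonadal libraries did not overlap. The log2 differences were 5.87 and 6.22 in males and 5.38 and 5.47 in females, DPP4_pos minus FIP first in each sex (SE 0.37, adjusted p between 2.2e-13 and 1.19e-11).

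Irx3, of the second cluster, was the exception: it was readily counted in gonadal cells. It had 128, 102 and 138 normalised counts in M_DPP4_pos, against 40.6, 44.6 and 34.1 in M_FIP. It had 37.5, 50.04 and 34.5 in M_DPP4_neg, against 31.1, 23.2 and 33.9 in M_APC. The ranges of the last pair did not overlap but nearly met, at 34.5 and 33.9. In females Irx3 had 88.0, 76.1 and 65.3 in F_DPP4_pos, against 20.8, 11.9 and 22.9 in F_FIP. The F_DPP4_neg libraries had 148, 247 and 154, against 28.7, 19.0 and 27.7 in F_APC. The highest group was F_DPP4_neg, the group with the high epithelial markers. The log2 difference was 0.45 ± 0.24 for M_DPP4_neg minus M_APC, which missed the threshold with limma's adjusted p = 0.0983 (95% interval -0.04 to 0.95). It was called in the others, at 1.59 ± 0.24 for M_DPP4_pos minus M_FIP (adjusted p = 2.58e-06), 2.03 ± 0.24 for F_DPP4_pos minus F_FIP (adjusted p = 1.48e-07) and 2.80 ± 0.24 for F_DPP4_neg minus F_APC (adjusted p = 3.19e-10). The call was missed or made by setting in the first comparison only: under quantile normalization its adjusted p was 0.0257. Irx3os, an antisense transcript that overlaps Irx3, is not a row of the table, so its reads cannot be told apart from those of Irx3.

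Irx5, the partner of Irx3, had 52.0, 49.6 and 54.0 normalised counts in M_DPP4_pos, against 0, 1.78 and 0.813 in M_FIP. It had 21.3, 18.4 and 25.9 in M_DPP4_neg, against 2.15, 2.32 and 1.13 in M_APC. Unlike Irx3, it was near the limit of counting in gonadal cells, with 3 reads over the 3 M_FIP libraries and 5 over the M_APC libraries. In females it had 66.0, 71.2 and 92.5 in F_DPP4_pos, against 6.65, 2.56 and 0.995 in F_FIP. The F_DPP4_neg libraries had 66.7, 85.9 and 84.2, against 0.99, 1.19 and 1.38 in F_APC, again 3 reads. Inguinal and gonadal libraries did not overlap in any pair. The log2 difference was 4.94 ± 0.38 for M_DPP4_pos minus M_FIP (adjusted p = 2.87e-11), 3.01 ± 0.38 for M_DPP4_neg minus M_APC (adjusted p = 1.83e-07), 4.34 ± 0.38 for F_DPP4_pos minus F_FIP (adjusted p = 9.25e-10) and 5.19 ± 0.38 for F_DPP4_neg minus F_APC (adjusted p = 1.9e-11). With so few gonadal reads the ratio is wide: 59.0-fold for M_DPP4_pos over M_FIP, with an exact binomial 95% interval of 19.8 to 290.

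**Figure D2:**
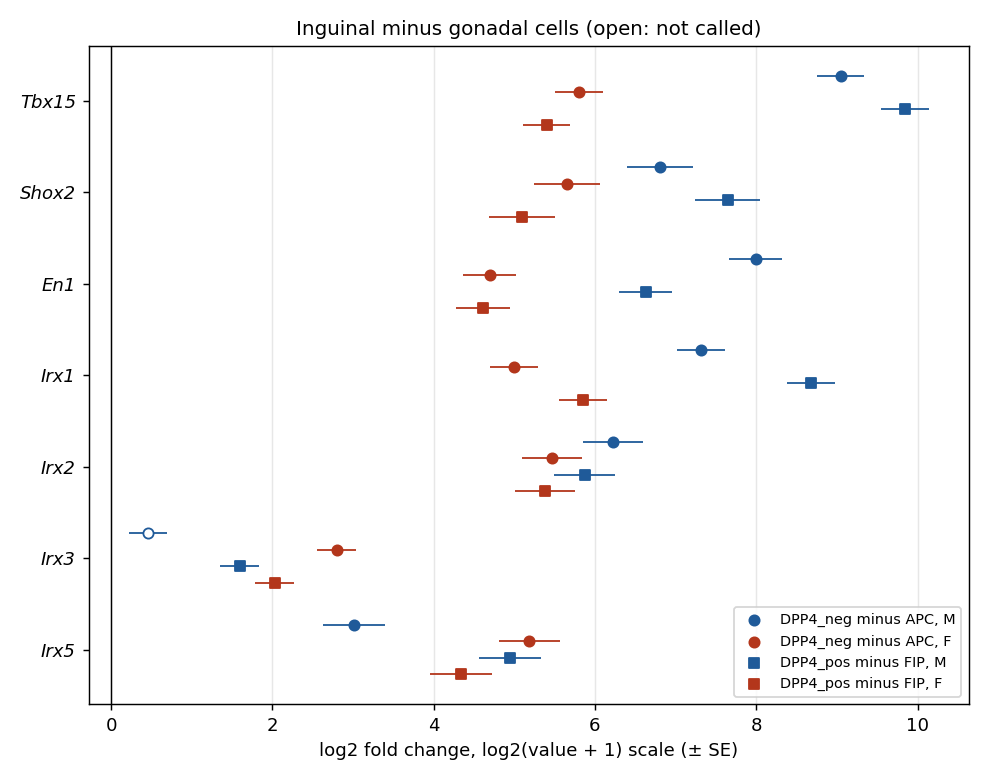
Log2 difference between inguinal and gonadal cells (± SE, log2(value + 1) scale) of each factor, with DPP4_neg minus APC as circles, DPP4_pos minus FIP as squares, males in blue and females in red. All points except the open one (Irx3 in M_DPP4_neg against M_APC, 0.45) passed the test, and for Tbx15, Shox2, En1, Irx1 and Irx2 both male points lie to the right of both female points.

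The depot difference was larger in males than in females for several factors, tested as the male difference minus the female difference. For DPP4_pos against FIP, 4 of 7 factors had a larger difference in males, Tbx15 by 4.44 ± 0.42 (adjusted p = 1.26e-08), Irx1 by 2.83 ± 0.42, Shox2 by 2.55 ± 0.57 and En1 by 2.02 ± 0.47, where 19.2% of all genes tested were called in that direction. For DPP4_neg against APC, 3 of 7 had a larger difference in males, En1 by 3.30 ± 0.47 (adjusted p = 3.35e-06), Tbx15 by 3.24 ± 0.42 and Irx1 by 2.32 ± 0.42, beside 20.3% of all genes tested. In the same comparison 2 of 7 had a smaller difference in males, Irx3 by -2.34 ± 0.34 (adjusted p = 4.54e-06) and Irx5 by -2.18 ± 0.54 (adjusted p = 0.00207), beside 22.6% of all genes tested. The Irx5 value is less firm, since its adjusted p was 0.0542 with a pseudocount of 0.1 and 0.0536 by DESeq2. For Irx2 neither difference between the sexes was called, 0.75 ± 0.53 for DPP4_neg against APC and 0.49 ± 0.53 for DPP4_pos against FIP.

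Tbx15, En1 and Irx1 were lower in male than in female gonadal cells in both FIP and APC, and Shox2 in FIP. For Shox2 in M_APC against F_APC the difference, -0.66 ± 0.41, was not called by limma (adjusted p = 0.191) and the libraries overlapped. In M_FIP against F_FIP, 5 of 7 factors were lower in males (19% of all genes tested were called lower) and 1 was higher (18.2%). Tbx15 was lower by -3.82 ± 0.30 with limma's adjusted p = 1.83e-10, Irx1 by -2.46 ± 0.30, Shox2 by -1.70 ± 0.41, En1 by -1.67 ± 0.33 and Irx5 by -1.14 ± 0.38, and Irx3 was higher by 1.10 ± 0.24. The Irx5 call rested on single libraries, with a log2 difference of -0.64 and an adjusted p of 0.203 without F_FIP replicate 1, and -0.75 and 0.152 without M_FIP replicate 1. It was also lost with a pseudocount of 10 (adjusted p = 0.167), by DESeq2 (0.0838) and with the 2 groups fitted alone (0.143). In M_APC against F_APC, 3 of 7 were lower in males (22.1% of all genes tested): En1 by -2.47 ± 0.33, Irx1 by -2.26 ± 0.30 and Tbx15 by -1.86 ± 0.30. These are small levels against the inguinal ones. In F_FIP the 6 factors other than Irx3 stood at 1.70 to 4.44% of their F_DPP4_pos level, and in F_APC at 1.504 to 3.72% of their F_DPP4_neg level. The male shares were 0.0699 to 1.67% in M_FIP and 0.155 to 1.13% in M_APC, apart from Irx5 in M_APC at 8.53%, a share that rests on 5 reads.

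Low shares of this size were also seen for some genes that mark another group of libraries, but not for all. The Y-linked genes, Eif2s3y, Kdm5d, Uty and Ddx3y, stood at 3.58 to 4.50% of their M_APC level in F_APC and at 1.68 to 2.64% of their M_FIP level in F_FIP. In inguinal cells they stood at 1.42 to 1.71% of their M_DPP4_neg level in F_DPP4_neg and at 0.9754 to 1.31% of their M_DPP4_pos level in F_DPP4_pos. Xist, a transcript of female cells, had no such share in male libraries. It did not exceed 5.80 normalised counts in any male library, against 11954 to 19203 in the female libraries. Wt1 and Tcf21, factors of visceral mesoderm, stood at 1.23 to 1.62% of their female gonadal level in female inguinal cells and at 0.209 to 0.818% of their male gonadal level in male inguinal cells. The shares of Wt1 and Tcf21 were thus smaller in male than in female libraries, as were the gonadal shares of the 6 factors other than Irx3, apart from Irx5 in APC. Irx3 went the other way, at 72.3% of its inguinal level in M_APC and 32.5% in M_FIP, against 13.7% in F_APC and 24.2% in F_FIP. The part of RNA from other cells or other libraries in the low female gonadal levels was not tested.

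Within the inguinal depot Irx1 was higher in DPP4_pos cells of both sexes, while few of the factors were called in all. In M_DPP4_pos against M_DPP4_neg, 3 of 7 were called higher, beside 25.2% of all genes tested, and in F_DPP4_pos against F_DPP4_neg 2 of 7 were called higher (22.6%) and 1 lower (27.1%). Counts this small stand near those shares, so nothing is read from them. Irx1 was higher in DPP4_pos cells by 2.06 ± 0.30 in males (adjusted p = 2.29e-06) and 1.74 ± 0.30 in females (adjusted p = 2.48e-05), the same direction in all 3 against 3 libraries of each sex. En1 was higher by 1.18 ± 0.33 in females (adjusted p = 0.00443). In males it was higher by 0.70 ± 0.33, which limma over all 8 groups did not call (adjusted p = 0.0805). The male libraries did not overlap, but the share of all genes for which this holds was not computed. The SE is shared with gonadal libraries of few reads, and edgeR's quasi-likelihood test on the recovered reads gave En1 in males an adjusted p of 1.06e-05. In F_DPP4_neg, replicate 1 had the highest En1 (985) and Irx1 (327) and also the highest Dpp4 (4213) and Pi16 (11178), a second gene of DPP4+ progenitors, and the part of carried-over DPP4+ cells in these values was not tested.

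Tbx15, Shox2 and Irx2 were called between the subpopulations in neither sex by limma over all 8 groups. Tbx15 was at -0.29 ± 0.30 in males (95% interval -0.90 to 0.32) and 0.47 ± 0.30 in females (interval -0.14 to 1.08). By edgeR's quasi-likelihood test both were called, with -0.31 and an adjusted p of 0.0194 in males and 0.49 and 0.00052 in females, so the directions were opposite in the sexes. Shox2 was at 0.11 ± 0.41 in males (95% interval -0.72 to 0.95) and -0.26 ± 0.41 in females (interval -1.09 to 0.58). Irx2 was at -0.16 ± 0.37 in males (interval -0.93 to 0.61) and 0.20 ± 0.37 in females (interval -0.57 to 0.97). For Shox2 and Irx2 these intervals allow differences of up to about 1 on the log2 scale, so equal levels are not shown.

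Irx3 moved in opposite directions in the sexes. It was higher in DPP4_pos cells by 1.57 ± 0.24 in males (adjusted p = 5.15e-06) and lower by -1.22 ± 0.24 in females (adjusted p = 0.000146). The male difference minus the female difference was 2.79 ± 0.34 (adjusted p = 7.75e-07), the 1 of 7 factors called in this comparison, where 16.4% of all genes tested were called in that direction. By edgeR's quasi-likelihood test Irx5 was also called larger in males (1.25, adjusted p = 0.00486), and Tbx15 (-0.81, adjusted p = 0.000283) and En1 (-0.50, adjusted p = 0.0176) smaller. Irx5 was higher by 1.22 ± 0.38 in males (adjusted p = 0.00978) and at -0.05 ± 0.38 in females (adjusted p = 0.928). With a pseudocount of 0.1 the male Irx5 difference had an adjusted p of 0.141.

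**Figure D3:**
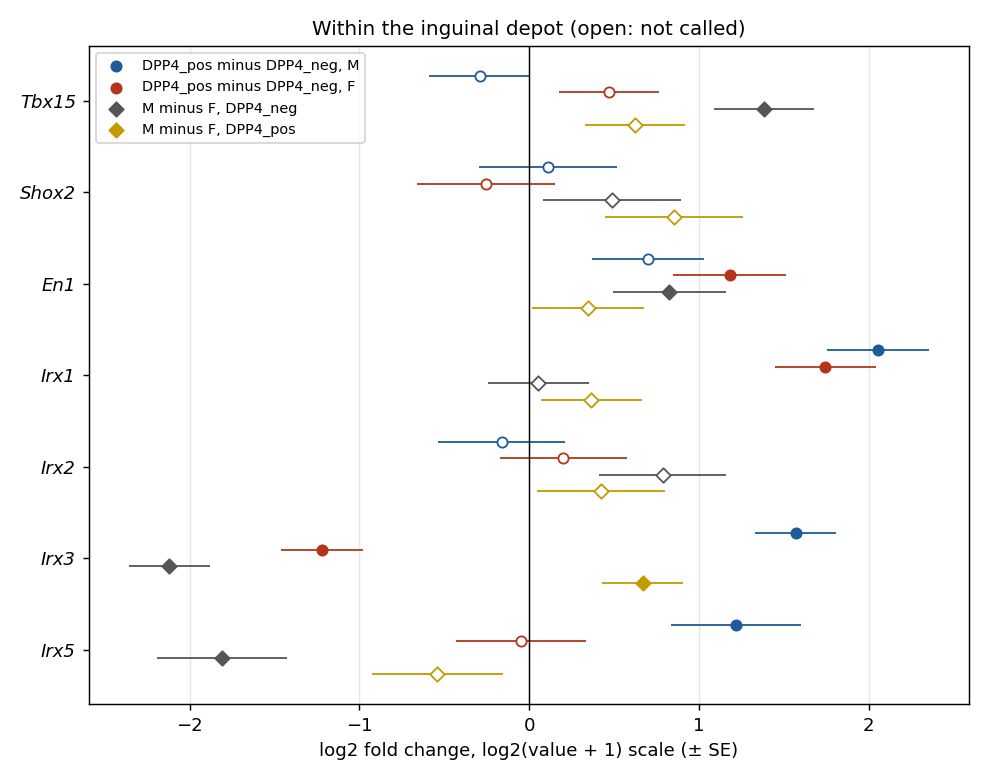
Log2 differences within the inguinal depot (± SE, log2(value + 1) scale): DPP4_pos minus DPP4_neg in males (blue circles) and females (red circles), and M minus F in DPP4_neg (grey diamonds) and DPP4_pos cells (yellow diamonds). Filled points passed the test. Irx1 lies at 2.06 and 1.74 for DPP4_pos minus DPP4_neg, and Irx3 lies at 1.57 in males and -1.22 in females.

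Between the sexes of inguinal cells, Tbx15 was higher and Irx3 and Irx5 were lower in male DPP4_neg cells, and the calls of other factors changed with the fit. In M_DPP4_neg against F_DPP4_neg, 2 of 7 were called higher (27.1% of all genes tested) and 2 lower (30.3%). Tbx15 was higher by 1.38 ± 0.30 (adjusted p = 0.000298) and En1 by 0.83 ± 0.33 (adjusted p = 0.0359). Irx3 was lower by -2.12 ± 0.24 (adjusted p = 4.85e-08) and Irx5 by -1.81 ± 0.38 (adjusted p = 0.000273). The En1 call was lost when 1 library was left out, with differences of 0.74 to 0.84 and adjusted p-values of 0.0647 to 0.103, in each case except the removal of F_DPP4_neg replicate 1. It was also lost with a pseudocount of 0.1 (adjusted p = 0.0988), with no filter (0.0582) and with quantile normalization (0.0726). Shox2 (0.49 ± 0.41, adjusted p = 0.311) and Irx2 (0.79 ± 0.37, adjusted p = 0.0758) were not called by limma over all 8 groups. By edgeR's quasi-likelihood test they were called higher, with adjusted p-values of 0.000728 and 5.59e-05, as they were by DESeq2, with a pseudocount of 10 and with the 2 groups fitted alone, so that 4 of 7 were higher. In this comparison 8332 of all 14517 genes were called in either direction in the main fit, and 6555 to 8979 genes under the 10 alternatives. In M_DPP4_pos against F_DPP4_pos, 1 of 7 was called, Irx3, higher by 0.67 ± 0.24 (adjusted p = 0.0217, beside 27.1% of all genes tested). That call was lost without F_DPP4_pos replicate 3 (adjusted p = 0.0902), M_DPP4_pos replicate 1 (0.0601) or M_DPP4_pos replicate 3 (0.0845). Tbx15 in DPP4_pos cells, 0.62 ± 0.30, and Shox2, 0.85 ± 0.41, were not called by limma (adjusted p = 0.0793 and 0.0792). Male and female libraries did not overlap for these factors, but the share of all genes for which this holds was not computed. By edgeR's quasi-likelihood test the adjusted p-values of Tbx15 and Shox2 were 5.64e-05 and 2.96e-06. That test also called En1 (0.33, adjusted p = 0.0147), Irx1 (0.32, 0.0368) and Irx2 (0.38, 0.0369) higher and Irx5 lower (-0.59, 0.0236). The count was thus 1 of 7 higher and 0 lower by limma over all 8 groups, and 6 higher and 1 lower by edgeR and by limma on the 2 groups alone. Over all genes, 7638 of 14517 were called in either direction in the main fit, and 6871 to 7643 genes under the 10 alternatives.

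F_DPP4_neg, the group with the highest Irx3, was also the group with the highest epithelial markers. All 12 epithelial markers (Epcam, Krt8, Elf5 and others) were called higher in F_DPP4_neg than in F_APC, with a median log2 difference of 6.53. Their summed level was 91.1 to 122 in M_DPP4_pos, 12.3 to 32.7 in M_DPP4_neg, 383 to 694 in F_DPP4_pos and 8524 to 20166 in F_DPP4_neg. Epcam, a defining epithelial gene, had 3.70 to 5.11 normalised counts in M_DPP4_neg, against 803, 1913 and 1149 in F_DPP4_neg. F_DPP4_neg replicate 2, with the highest marker sum, had the highest Irx3 (247) and the highest Irx5 (85.9) of its group and the lowest Tbx15 (966). In F_DPP4_pos the highest Irx5 (92.5, replicate 3) came with a marker sum of 421, below that of replicate 2 (694). In males both factors and the marker sum were higher in DPP4_pos than in DPP4_neg cells. The markers as a list were not: 2 of 12 were called higher (25.2% of all genes tested) and 1 lower, with a median log2 difference of 0. Epcam itself was lower in M_DPP4_pos, at 3.39, 1.15 and 1.10, than in M_DPP4_neg. The part of epithelial RNA in the female Irx3 and Irx5 levels, and in the lower female Tbx15, was not tested.

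**Figure D4:**
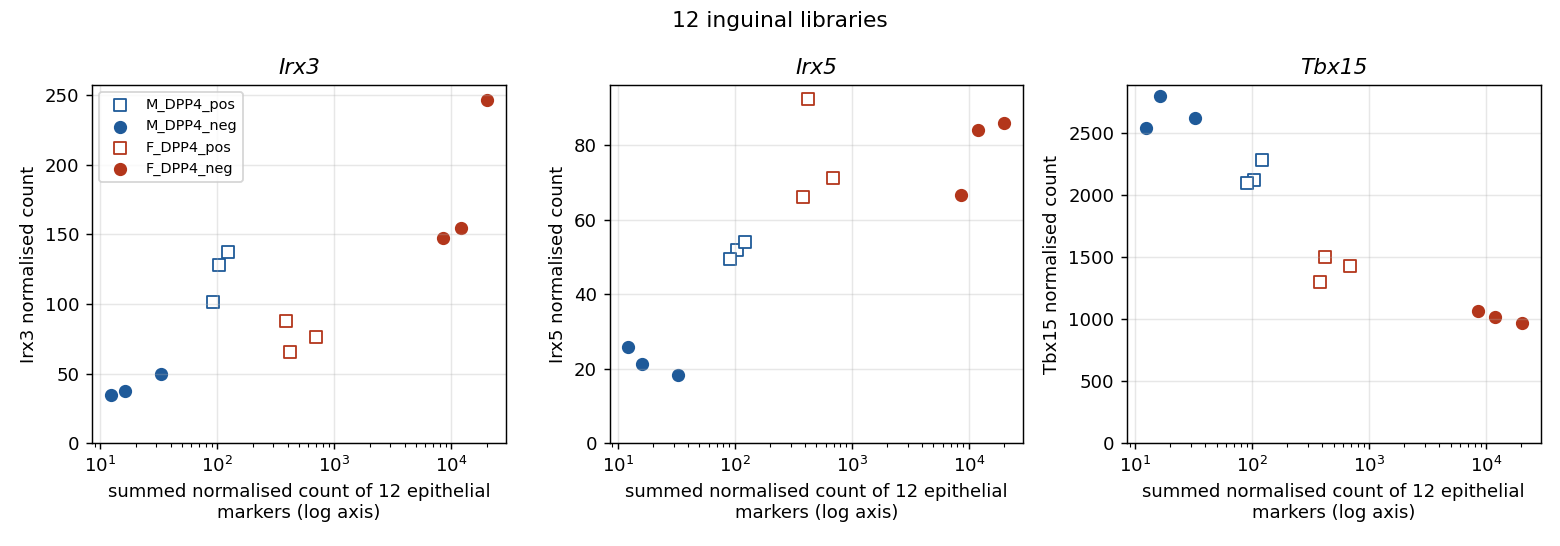
Irx3, Irx5 and Tbx15 normalised counts against the summed normalised count of 12 epithelial markers (log axis) in the 12 inguinal libraries, with DPP4_pos as open squares, DPP4_neg as filled circles, males in blue and females in red. F_DPP4_neg libraries (sum 8524 to 20166) have the highest Irx3 (148 to 247) and the lowest Tbx15 (966 to 1066).

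In gonadal cells the low levels differed between FIP and APC for a few factors. In M_FIP against M_APC, 1 of 7 was called higher (18.9% of all genes tested) and 1 lower (18%), and in F_FIP against F_APC 3 of 7 were called higher (21.3%). En1 was higher in FIP in both sexes, by 2.06 ± 0.33 in males (adjusted p = 1.7e-05) and 1.26 ± 0.33 in females (adjusted p = 0.00342). Tbx15 was lower in FIP by -1.09 ± 0.30 in males (adjusted p = 0.00485), a call that rests on 5 and 11 reads and was lost by edgeR's quasi-likelihood test (adjusted p = 0.19). In females Tbx15 was higher by 0.87 ± 0.30 (adjusted p = 0.0205) and Irx1 by 0.89 ± 0.30 (adjusted p = 0.0188). Tbx15 was the 1 of 7 factors whose FIP minus APC difference was called lower in males than in females, at -1.96 ± 0.42 (adjusted p = 0.00261, beside 5.33% of all genes tested). The female Tbx15 call was lost without F_APC replicate 1 or 2 or F_FIP replicate 1 or 2, with differences of 0.56 to 0.74 (adjusted p = 0.089 to 0.168). The female Irx1 call was lost without F_APC replicate 2 or F_FIP replicate 1 or 2, with differences of 0.67 to 0.74 (adjusted p = 0.0907 to 0.115).

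Levels can be compared between genes per kilobase of exon. In normalised counts per kilobase, En1 reached 875 in M_DPP4_pos and Tbx15 707 in M_DPP4_neg, the highest group means of the 7 factors. Irx1 followed with 414 in M_DPP4_pos. Shox2 did not exceed 114, Irx2 90.5, Irx3 66.3 and Irx5 25.2 in any group mean. The groups also ranked differently by factor. Tbx15 and Irx2 were highest in M_DPP4_neg, Shox2, En1 and Irx1 in M_DPP4_pos, and Irx3 and Irx5 in F_DPP4_neg. Neighbours in this order whose libraries overlapped among the inguinal groups were M_DPP4_pos and M_DPP4_neg for Shox2, M_DPP4_neg and F_DPP4_neg for Irx1, F_DPP4_pos and F_DPP4_neg for Irx2, and F_DPP4_neg and F_DPP4_pos for Irx5. Irx3 in M_DPP4_neg overlapped M_FIP, the next group in its order.

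Over the 12 inguinal libraries, which share the depot but differ by sex and subpopulation, the factors fell into 3 patterns by Pearson's r of log2(value + 1). Tbx15 ran with Irx2 (r = 0.88) and Shox2 (r = 0.76), En1 ran with Irx1 (r = 0.85), and Irx3 ran with Irx5 (r = 0.73) and against Tbx15 (r = -0.71). Irx5 also ran against Tbx15 (r = -0.84). The patterns were not fully separate, since Tbx15 and En1 had r = 0.62. Irx1 and Irx2, which are neighbours in 1 cluster, had r = 0.10. Over all 24 libraries, where the depot dominates, every pair without Irx3 had an r of at least 0.90, and pairs with Irx3 had an r of 0.64 to 0.81. These values are descriptions over 4 and 8 groups of 3 libraries.

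Among 10004 tested genes with a mean of at least 100 in their highest group, those most like each factor over the 24 libraries were found by Pearson's r. Tbx15 was most like Ctsb (0.982), Il31ra (0.981) and Dab2 (0.979), and Shox2 most like Slc7a5 (0.982), Cemip2 (0.978) and Ctsb (0.9752). En1 was most like Ugcg (0.980), Chrdl1 (0.978) and Nmd3 (0.974), and Irx1 most like Adh7 (0.987), Il31ra (0.984) and Ipo5 (0.983). Irx2 was most like Slc7a5 (0.980), Mpp5 (0.979) and Slc16a10 (0.976). The likeness was lower for Irx5, with S1pr2 at 0.966, and lowest for Irx3, with Gramd1b at 0.914, Usp6nl at 0.904 and Cd24a at 0.903. Cd24a encodes a surface protein of epithelial and other cells.

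The genes around the 7 factors moved in both directions. Within 1000 kb of their starts, 39 other genes were tested. Of these 12 were called higher and 15 lower in M_DPP4_neg against M_APC (33% and 33.1% of all genes tested), 10 and 12 in F_DPP4_neg against F_APC (32.2% and 26.8%), 16 and 12 in M_DPP4_pos against M_FIP (32.4% and 32.6%), and 11 and 8 in F_DPP4_pos against F_FIP (22.6% and 22.1%). Their median log2 difference was between -0.01 and 0.05. Wars2, a mitochondrial tRNA synthetase gene that ends 1.20 kb before Tbx15 begins, was at -0.29 to 0.12 in the 4 comparisons and was called in none. Fto, the obesity-associated demethylase gene beside Irx3, was higher by 0.21 ± 0.07 in M_DPP4_pos against M_FIP and 0.24 ± 0.07 in F_DPP4_pos against F_FIP, and was at 0.10 and 0.13 in the DPP4_neg comparisons of males and females, where it was not called. Insig2, the nearest tested gene after En1, was called in both male comparisons, at 0.23 and 0.45, and in neither female one. Adamts16, the nearest gene before Irx1, begins 1116 kb away and so is not among the 39. It was lower in inguinal cells in all 4, by -3.61 to -0.84.

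Of the 39 genes, Crnde, Mmp2, Rsrc1 and Ddx18 were called higher in all 4 comparisons. Mmp2, whose start lies 470 kb from that of Irx5, was higher by 1.03 to 1.94. Rsrc1 was higher by 0.77 to 1.07, and Ddx18, 966 kb from En1, by 0.41 to 0.90. Crnde is a non-coding transcript whose start lies 1.51 kb from that of Irx5. It was higher by 4.31 in M_DPP4_pos against M_FIP, 2.74 in M_DPP4_neg against M_APC, 2.07 in F_DPP4_pos against F_FIP and 2.30 in F_DPP4_neg against F_APC, each called by limma (adjusted p between 1.14e-07 and 0.00249). Irx4 and Irx6, the third members of the clusters, were too low to test. Irx4 did not exceed 1.02 outside F_DPP4_neg, where it had 3.97, 0.774 and 9.08 normalised counts, and Irx6 did not exceed 3.06 in any library.

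**Figure D5:**
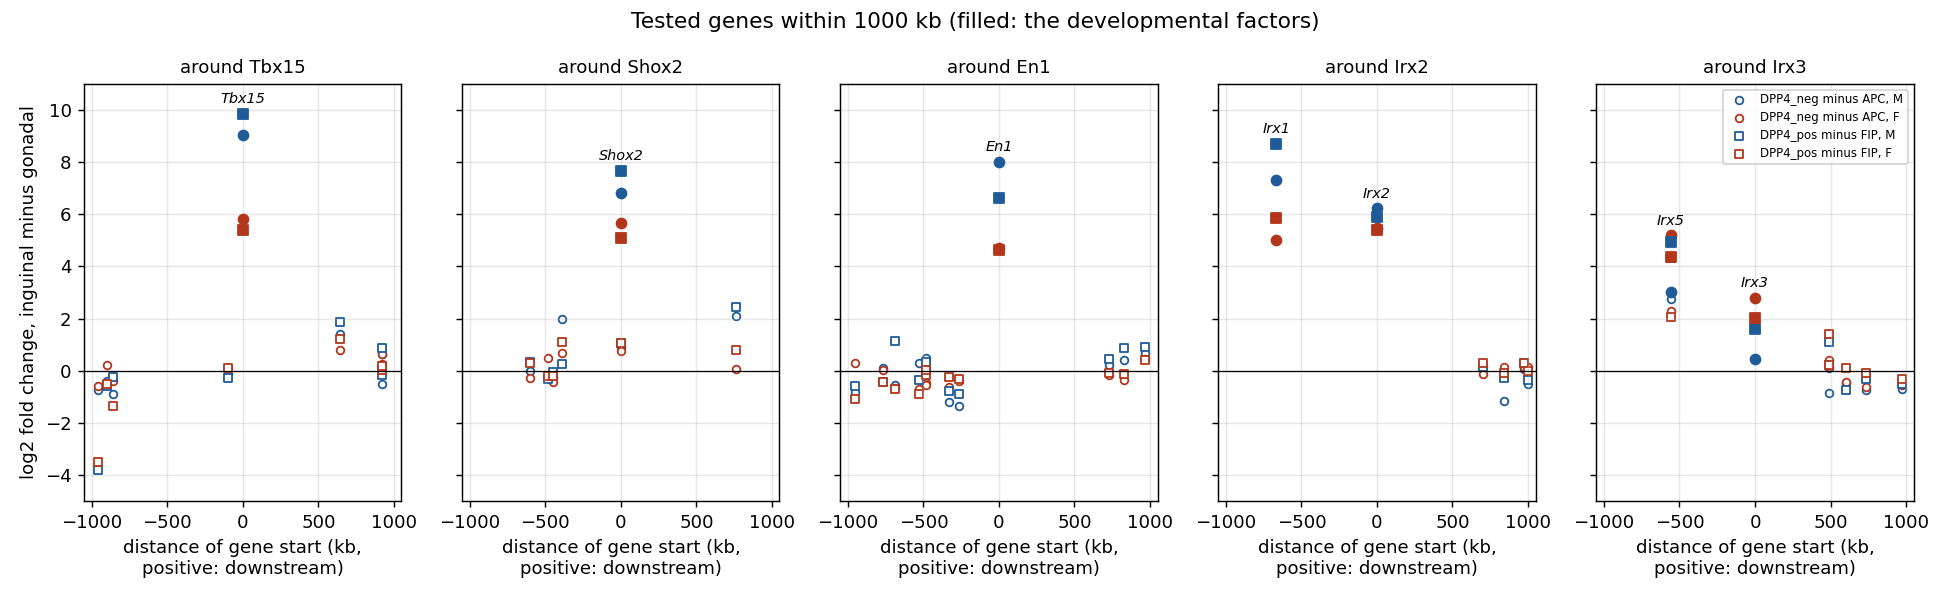
Log2 difference between inguinal and gonadal cells of tested genes against the distance of their start from that of the named gene (kb, positive values downstream), with DPP4_neg minus APC as circles, DPP4_pos minus FIP as squares, males in blue and females in red. The developmental factors (filled) stand above most open points, and Crnde (2.07 to 4.31) lies beside Irx5.

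Of 15 T-box family genes other than Tbx15, 7 were tested. Of these 2 were higher and 1 lower in M_DPP4_neg against M_APC (33% and 33.1% of all genes tested), 4 and 0 in F_DPP4_neg against F_APC (32.2% and 26.8%), 3 and 2 in M_DPP4_pos against M_FIP (32.4% and 32.6%), and 2 and 3 in F_DPP4_pos against F_FIP (22.6% and 22.1%). Counts over 7 genes stand too near these shares to set the family apart. Tbx5, the forelimb and heart factor, was higher in inguinal cells by 5.78 (M_DPP4_pos), 3.14 (M_DPP4_neg), 3.80 (F_DPP4_pos) and 2.91 (F_DPP4_neg). Tbx1 was higher by 2.54, 4.32, 2.51 and 3.73 in the same order.

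Of 29 limb and body wall factors, 22 were tested, with medians of 0.21 to 1.14 in the 4 comparisons. In M_DPP4_pos against M_FIP 10 were called higher and 6 lower (32.4% and 32.6% of all genes tested), in M_DPP4_neg against M_APC 13 and 7 (33% and 33.1%), in F_DPP4_pos against F_FIP 11 and 3 (22.6% and 22.1%), and in F_DPP4_neg against F_APC 13 and 6 (32.2% and 26.8%). Lmx1b, of dorsal limb patterning, was higher by 2.44 to 4.29 in inguinal cells, and Dlx5 by 1.48 to 2.62. Alx1, a homeodomain factor of craniofacial mesenchyme, was lower in inguinal cells by -5.39 to -2.56, and Meis1 by -2.64 to -1.31.

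Of 12 thermogenic and lipolytic genes, 8 were tested, among them targets that Shox2 and the Irx factors have been linked to. In M_DPP4_pos against M_FIP 2 were called higher and 4 lower (32.4% and 32.6% of all genes tested), in M_DPP4_neg against M_APC 4 and 4 (33% and 33.1%), in F_DPP4_pos against F_FIP 0 and 5 (22.6% and 22.1%), and in F_DPP4_neg against F_APC 3 and 4 (32.2% and 26.8%). Adrb3, the adipocyte beta-adrenergic receptor, was lower in inguinal cells by -3.37 to -1.005 in the 4 comparisons, Lipe, hormone-sensitive lipase, by -2.04 to -0.91, and Pnpla2, the first lipase of lipolysis, by -1.24 to -0.23. Others of the list were higher in DPP4_neg than in APC cells. Dio2, the deiodinase that activates thyroid hormone, averaged 28.2 normalised counts in M_DPP4_neg, against 0.715 in M_APC, and 63.5 in F_DPP4_neg, against 2.57 in F_APC. Prdm16, a brown fat co-regulator, was higher by 1.62 in males and 0.96 in females, and Tmem26, a beige fat marker, by 5.60 and 0.78. Cox8b, a cytochrome oxidase subunit gene, was higher by 3.5002 in M_DPP4_neg against M_APC and lower by -1.72 in F_DPP4_neg against F_APC. Adipocyte markers were lower in inguinal cells, 7 of 8 called in M_DPP4_neg against M_APC and 8 of 8 in F_DPP4_neg against F_APC. Adrb3 is itself among these 8 markers, so the lists share this gene. The part of adipocyte RNA in the Adrb3, Lipe and Pnpla2 values was not tested. Ucp1 and Cidea did not pass the filter on low values.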

How the data were processed

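RNA of 24 libraries was sequenced, 3 in each of 8 groups taken from the sample labels. The deposited values are a normalized signal per gene, per the submitters' processing notes with the tools DESeq2 1.6.3, featureCounts 1.4.6, HISAT2 2.0.1 and Trim Galore 0.4.1 and the build GRCm38 (mm10). Which tool did what, and the strand setting, are not given in the sources used here. Deposited values proved to be read counts scaled by a single size factor in each library: 100% were whole multiples of 1 step within 0.01 read.

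Tests were made with limma 3.58.1 (R 4.3.3) on log2(value + 1), with 1 mean per group over all 24 libraries, a mean-variance trend and two-sided tests. Genes that reached 10 in 3 or more libraries were tested (14517), and the threshold for a call was 0.05 after Benjamini-Hochberg adjustment over these genes. Fold changes on this scale understate the change of low genes. The single spread per gene is shared by all 8 groups. Ratios of recovered reads have exact binomial 95% intervals that cover counting error only, because PCR copies were not collapsed by molecular identifiers. The alternatives were pseudocounts of 0.1 and 10, no filter and a filter at 50, quantile and TMM normalization, edgeR 4.0.16 and DESeq2 1.42.0 on the recovered reads, the groups of a contrast alone, a replicate block, and each of the 24 libraries left out. Promoters are from RefSeq (GRCm38.p6), exon lengths and positions from GENCODE M21. Rows without a symbol held at most 0.0765% of reads.

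The 7 genes, the lists of related and marker genes and the rules for naming genes were chosen with earlier results of these data known.

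Replicate numbers were checked as pairs through the deviations of same-numbered libraries from their group means. In F_DPP4_pos and F_DPP4_neg all 3 pairs correlated above 0.1 (0.105 to 0.201), which meets the bar set for pairing; no other pair of groups did.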

Additional observations from a re-analysis of the deposited data

Results flagged for a closer look

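Contrasts that differed between the sexes called attention to 6 of the 7 factors. The test was of the male difference minus the female difference, with limma and Benjamini-Hochberg adjustment over 14517 genes. By the same test 5066 genes were called in either direction for DPP4_pos minus FIP and 6223 for DPP4_neg minus APC. For DPP4_pos minus DPP4_neg 4205 genes were called, and for FIP minus APC 1566. The share of all genes called in any of these contrasts was not computed, so nothing is read from the count of factors. For DPP4_pos minus FIP the value was 4.44 for Tbx15, 2.83 for Irx1, 2.55 for Shox2 and 2.02 for En1 on the log2 scale, larger in males each time. For DPP4_neg minus APC it was 3.30 for En1, 3.24 for Tbx15 and 2.32 for Irx1, larger in males, and -2.34 for Irx3 and -2.18 for Irx5, larger in females. For DPP4_pos minus DPP4_neg it was 2.79 for Irx3, which was higher in DPP4_pos cells of males and lower in those of females. For FIP minus APC it was -1.96 for Tbx15 (adjusted p = 0.00261), a value that rests on 5 and 11 male reads and that edgeR's quasi-likelihood test did not call (-2.44, adjusted p = 0.0792). The Irx3 values share the F_DPP4_neg libraries, and the other values share their groups likewise, so they are not independent of each other. No test for a single outlying library was applied to these groups of 3.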

How the results depend on the processing

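Counts of called genes over all genes stayed within 1.5 times under the 10 alternatives and the 24 fits that each left out 1 library, and so did counts over the 7 factors in the 4 depot comparisons. Elsewhere the factor counts moved. For M_DPP4_pos minus F_DPP4_pos, 1 higher and 0 lower became 6 and 1 by edgeR and with the groups alone, 5 and 1 by DESeq2 and 4 and 1 with a pseudocount of 10. For M_DPP4_neg minus F_DPP4_neg, 2 higher became 4 under these 4 settings and 1 with a pseudocount of 0.1 or no filter. For DPP4_pos minus DPP4_neg in males, 0 lower became 1 by edgeR, by DESeq2 and with the groups alone. The sexes of that difference gave 2 higher and 2 lower in place of 1 and 0 under these 3 settings, and 2 and 1 with a pseudocount of 10. The sexes of DPP4_neg minus APC gave 5 higher in place of 3 with a pseudocount of 10, and 1 lower in place of 2 with a pseudocount of 0.1 or by DESeq2. For FIP minus APC, 1 lower in males became 0 with a pseudocount of 10, by edgeR and by DESeq2, 1 higher in males became 2 with a pseudocount of 0.1, 3 higher in females became 1 with a pseudocount of 0.1 or the groups alone, and 1 lower in the sexes became 0 by edgeR. With a library left out, the counts ranged from 0 to 1 higher for M_DPP4_pos minus F_DPP4_pos, 1 to 2 higher for M_DPP4_neg minus F_DPP4_neg, 1 to 4 higher for FIP minus APC in females, 1 to 2 higher and 1 to 3 lower in males, and 0 to 1 higher and 1 to 2 lower in the sexes of FIP minus APC. Of the single-gene results under the 10 alternatives, 1040 kept direction and call, 57 became called, 18 lost the call and 5 turned round. With a library left out, 786 kept both, 12 became called, 17 lost the call and 25 turned round. No turned value was called under either setting, and the causes were not tested.

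Those that turned were the Irx1 difference between the sexes of FIP minus APC (0.73 with a pseudocount of 0.1, 0.062 by edgeR and 0.16 by DESeq2), Irx5 for the sexes of DPP4_pos minus FIP (-0.19 with a pseudocount of 10) and Irx5 for F_DPP4_pos minus F_DPP4_neg (0.24 with quantile normalization). With a library left out, Irx2 ranged from -0.26 to 0.44 for FIP minus APC in males, -0.19 to 0.66 in females and -0.56 to 0.38 in the difference between these, and from -0.45 to 0.49 for M_APC minus F_APC and -0.35 to 0.29 for M_FIP minus F_FIP. Shox2 ranged from -0.28 to 0.65 for F_FIP minus F_APC. Irx1 ranged from -0.058 to 0.25 for M_DPP4_neg minus F_DPP4_neg and -0.56 to 0.024 for the sexes of FIP minus APC, and Irx5 from -0.19 to 0.049 for F_DPP4_pos minus F_DPP4_neg.

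Of 84 pairs of same-numbered libraries, 4 had deviations that correlated above 0.1 (range -0.17 to 0.20, median -0.0035), and 6 of 24 libraries were closest to their own number. All 3 pairs of F_DPP4_pos with F_DPP4_neg were among the 4, so the numbers may pair these libraries. The replicate block changed no call of the 7 factors, with 7166 genes called in place of 7216 in F_DPP4_pos minus F_DPP4_neg and 9557 in place of 9599 in M_DPP4_neg minus M_APC. Quantile normalization moved the median of all genes by -0.12 in F_DPP4_neg minus F_APC, 0.10 in F_DPP4_pos minus F_DPP4_neg, 0.12 in M_DPP4_neg minus F_DPP4_neg and 0.15 in the difference between the sexes of DPP4_neg minus APC. Depth limits the gonadal values, where as few as 2 reads over 3 libraries stand behind a group mean.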

Other observations

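Markers of other cell types were also compared between the depots. Counts below are for M_DPP4_pos against M_FIP, M_DPP4_neg against M_APC, F_DPP4_pos against F_FIP and F_DPP4_neg against F_APC. Of all genes tested, 32.4%, 33%, 22.6% and 32.2% were called higher in this order. The shares called lower were 32.6%, 33.1%, 22.1% and 26.8%. Over lists this small, nothing is read from counts near these shares. Of 10 mesothelial markers, 10 were called lower in M_DPP4_pos against M_FIP, 9 in M_DPP4_neg against M_APC, 7 in F_DPP4_pos against F_FIP and 9 in F_DPP4_neg against F_APC, and 0, 0, 1 and 1 were called higher. Their sum in F_DPP4_neg, 2625 to 6419 normalised counts, nonetheless overlapped that in F_APC, 4489 to 4626. Only 1 of the 10 was called higher there, so the overlap of sums does not describe the list. Wt1, a member, stood at 44.5 to 56.5 in F_DPP4_neg against 3376 to 3573 in F_APC. The part of epithelial RNA in the F_DPP4_neg sum was not tested. Of 10 endothelial markers, 9, 10, 7 and 10 were called lower in the same order and 0, 0, 1 and 0 higher. The endothelial sum was higher in F_DPP4_pos, 6454 to 7421, than in F_FIP, 5711 to 6339. Of 9 mural markers, 7, 5, 5 and 4 were called lower and 2, 2, 3 and 3 higher. Of 10 macrophage and leukocyte markers, 1, 4, 6 and 6 were called higher and 5, 1, 2 and 1 lower. Of 8 adipocyte markers, 4, 7, 5 and 8 were called lower and none higher. Of 7 tested skeletal muscle markers, 2, 2, 1 and 2 were called lower and 0, 0, 1 and 2 higher. Of 12 epithelial markers, 1, 2, 9 and 12 were called higher and 4, 4, 0 and 0 lower. Of 6 tested neighbours of the Iroquois clusters, 5, 3, 4 and 4 were called higher and 1, 2, 0 and 1 lower.

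Alx4, a limb homeodomain factor, moved in opposite directions in the sexes: in DPP4_neg cells against APC it was lower by -2.75 in males and higher by 2.56 in females, where it averaged 250.8 normalised counts in F_DPP4_neg. F_DPP4_neg is the group with the high epithelial markers, whose part in this value was not tested. Pitx1, the hindlimb factor, was higher by 5.73 in M_DPP4_pos against M_FIP, and was at -0.04 in F_DPP4_pos against F_FIP. These genes were chosen after their values were seen.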
